A study of Homo sapiens with 24 samples.

Results

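The effect of the siRNA against TAPIR-1 in LNCaP cells was compared between 48 h and 24 h after transfection. For each probe, the difference between the si-A1 and the scramble arrays was taken within each time point, and the change of effect is the difference at 48 h minus the difference at 24 h, on the log2 scale. A negative change means that the level under si-A1, relative to scramble, lay lower at 48 h than at 24 h. The comparison was between 16 of the 24 arrays of the series, 4 for each of scramble 24 h, si-A1 24 h, scramble 48 h and si-A1 48 h. The normalization, the filter and the fit that gave the standard errors held 23 arrays. The additional ones came from LNCaP cells that received si-A2, an siRNA against a second transcript, TAPIR-2. The 24 h samples were hybridised to another version of the Agilent array than the 48 h samples, so that time and array version cannot be told apart, and levels were not compared across time points. Members were therefore the 45698 probes present on both versions, of 50599 probes on the 24 h arrays and 58201 on the 48 h arrays, and 39865 of them passed the filter on dim probes and were tested. They stood for 19651 of the 21519 genes that RefSeq names for the shared probes.

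LNCaP is an established androgen-sensitive prostate cancer cell line that carries an intact p53 gene. All 4 groups were LNCaP cells transfected with an siRNA. The si-A1 groups received an siRNA against TAPIR-1, a long non-coding RNA that the study found in prostate cancer, and the scramble groups received an siRNA with no target. Each group had 4 biological replicates, and replicates 1 and 2 of every group lay on the first slide of their time point and replicates 3 and 4 on the second. A single siRNA stood for the knockdown, so its target and its own sequence cannot be told apart. No shared probe was matched to TAPIR-1, and the knockdown itself was not checked here. The probe of TAPIR-2, the neighbouring transcript, differed by -0.43 at 24 h (exact permutation p = 0.0571, two-sided, 4 arrays against 4, smallest possible p = 0.0286) and by 0.19 at 48 h (exact permutation p = 0.743). Its change of effect was 0.62 (exact permutation p = 0.232, smallest possible p = 0.000408).

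Dividing cells switch on genes in waves. E2F factors drive the genes of DNA replication and the histones before and during S phase, and a later wave, driven by B-MYB, FOXM1 and the MuvB complex, supplies the kinases, kinesins and kinetochore proteins of G2 and mitosis. Both waves are held down in arrested cells by RB and by the DREAM complex, and p53 induces p21, the product of CDKN1A, which inhibits the cyclin-dependent kinases upstream of both.

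Among all tested probes, 241 (0.605%) had a called change of effect, 101 higher and 140 lower at 48 h. A probe was called at a limma adjusted p below 0.05 and an absolute change of at least 0.5, and 4928 probes had an unadjusted p below 0.05. With each gene read at its brightest probe, 144 of 19651 genes were called, 100 lower (0.509%) and 44 higher (0.224%). The effects at the single time points were called more often, lower for 926 genes (4.71%) and higher for 215 (1.09%) at 24 h, and lower for 1559 (7.93%) and higher for 756 (3.85%) at 48 h. All 100 genes with a lower effect lay below scramble at 48 h. Of them, 40 had fallen at both times and further at 48 h, 46 were called at 48 h alone, 6 had risen at 24 h alone, 1 was called in opposite directions and 7 were called at neither time. Of the 44 genes with a higher effect, 26 were called at 48 h alone and 9 at 24 h alone.

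These counts depended on which arrays entered the fit. The fit held 23 arrays, without the dimmest si-A2 array at 48 h, because the study's methods removed 1 such array for low intensity. With all 24 arrays, limma called 0 probes (903 with an unadjusted p below 0.05), and with only the 16 si-A1 and scramble arrays it called 106. Within the first slides (replicates 1 and 2) and within the second (replicates 3 and 4), 0 probes were called, with 3083 and 2753 probes at an unadjusted p below 0.05. Leaving out single arrays gave 96 (without si-A1 24 h replicate 3) to 357 calls (without scramble 24 h replicate 3). For the genes CDKN3, KIF20A, KIF4A, CENPF, GTSE1, NEK2, CENPH, AURKA, DLGAP5, GMNN, LRRN1, CCDC28A and GRB10, the calls were lost with all 24 arrays and kept in the other alternatives run on 3 or more arrays per group. Within the slides, with 2 arrays per group, the decreases of the first 10 of these genes lay between -2.97 and -1.08 and the increases of the last 3 between 1.18 and 2.49.

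**Figure D1:**
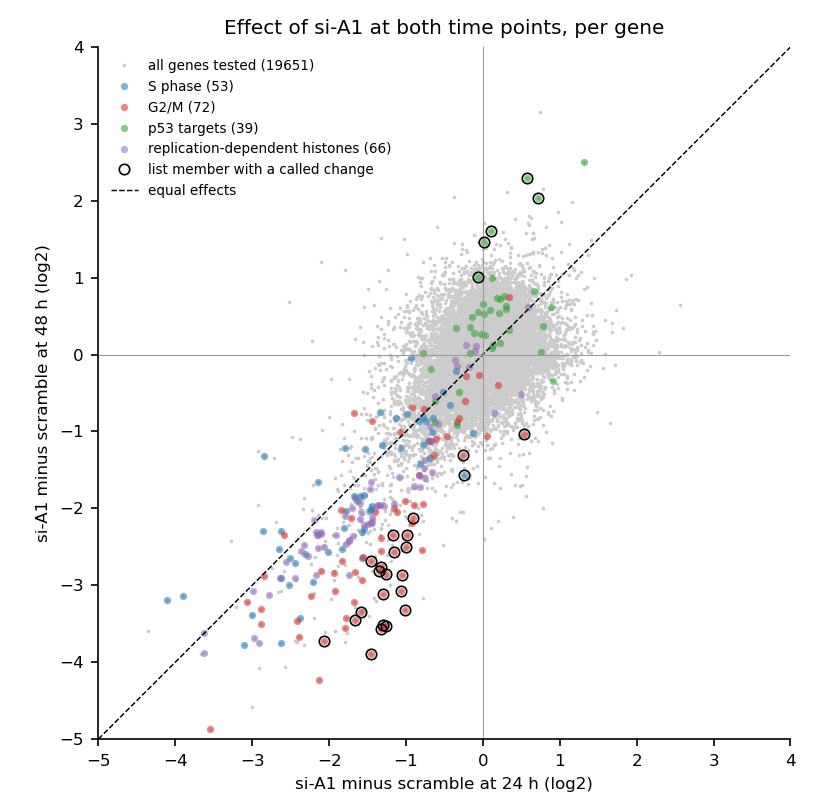
Each point is 1 gene at its brightest probe, with the difference between si-A1 and scramble at 24 h on the horizontal axis and at 48 h on the vertical axis, both in log2 units. Most G2/M genes (red) lie below the dashed line of equal effects, the 22 circled ones with a called change, whereas S phase genes (blue) and histones (purple) lie closer to it and 5 p53 targets (green) are circled above it.

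The genes of G2 and mitosis made up the largest group of called list members. Of the 72 members of the G2/M list tested, 22 had a lower effect at 48 h and 0 a higher one, against 0.509% of all genes called lower. The median effect of the list was -1.30 at 24 h and -2.55 at 48 h, and its median change was -1.06, against -0.03 for all genes. The effect was lower at 48 h than at 24 h in 65 of the 72 members, and 20 of the 22 called members had fallen at both times. The list median per array lay between 7.25 and 7.48 (log2 intensity) in scramble and between 5.84 and 6.35 in si-A1 at 24 h, and between 7.82 and 8.30 and between 5.42 and 5.68 at 48 h. The groups did not overlap at either time.

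Among the motor proteins, KIF20A, a kinesin of cytokinesis, had the smallest adjusted p of the list. At 24 h its log2 intensity was 7.82, 8.15, 8.13 and 7.86 in scramble and 7.08, 6.88, 7.02 and 6.95 in si-A1. At 48 h it was 9.34, 9.19, 8.91 and 9.02 in scramble and 5.63, 6.09, 5.42 and 6.05 in si-A1. All si-A1 arrays lay below all scramble arrays at both times, and the gap was wider at 48 h. The fall was 2.01-fold at 24 h and 9.97-fold at 48 h, a change of effect of -2.31 (SE 0.23, limma adjusted p = 0.000462), and it was -2.4 within the first slides and -2.22 within the second. KIF4A, a chromokinesin, changed by -2.27 (SE 0.337, adjusted p = 0.00487). Its second probe gave -1.80, which was not called (adjusted p = 0.0829).

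Several kinetochore and spindle genes were called. CENPF, a large kinetochore protein, read 8.85, 8.70, 9.05 and 8.71 in scramble and 7.82, 7.42, 7.49 and 7.31 in si-A1 at 24 h. The 48 h arrays read 9.32, 9.31, 8.75 and 9.31 in scramble and 5.42, 5.94, 5.22 and 5.82 in si-A1. The groups were apart at both times, with a fall of 2.49-fold at 24 h and 11.9-fold at 48 h. The change of effect was -2.25 (SE 0.261, limma adjusted p = 0.0016), and its second, dimmer probe gave -1.89, which was not called (adjusted p = 0.0515). DLGAP5, a spindle protein, had the largest change of the list at -2.45 (adjusted p = 0.00487), but only 1 of 4 si-A1 arrays at 48 h was well above background. CENPH, a component of the inner kinetochore outside the list, changed by -1.94 (adjusted p = 0.0029), with an effect of -0.52 that was not called at 24 h. NUF2 (-1.76), CENPE (-1.59), PRC1 (-1.43), SMC4 (-1.23) and TACC3 (-1.18), which serve kinetochores, the spindle midzone, condensed chromosomes and spindle poles, and TOP2A (-1.79), the topoisomerase that untangles them, also fell further at 48 h. LBR and TMPO encode proteins of the inner nuclear membrane. TMPO changed by -1.22 and LBR by -1.57, from an effect of 0.54 that was not called at 24 h to -1.03 at 48 h. G2E3, a ubiquitin ligase, changed by -1.05, with an effect of -0.26 that was not called at 24 h and -1.31 at 48 h.

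The mitotic kinases and their regulators followed. AURKA, the spindle pole kinase Aurora A, read 8.36, 8.51, 8.55 and 8.30 in scramble and 7.61, 7.21, 7.53 and 7.15 in si-A1 at 24 h. Its 48 h values were 9.21, 9.02, 9.04 and 9.02 in scramble and 6.09, 6.49, 5.93 and 6.34 in si-A1. The groups did not overlap, and the fall went from 2.07-fold to 7.28-fold, a change of -1.81 (SE 0.221, limma adjusted p = 0.00172). PLK1, the kinase that triggers mitotic entry and exit, fell 2.46-fold at 24 h and 8.63-fold at 48 h (change -1.81, SE 0.326, adjusted p = 0.0168). Both PLK1 probes were called, the second at -1.38. NEK2, a centrosome kinase, changed by -2.02 (adjusted p = 0.00652, second probe -1.55 and not called), and GTSE1, a microtubule protein named for its expression in G2 and S phase, by -2.22 (adjusted p = 0.00359). PBK, another mitotic kinase, changed by -1.95 (adjusted p = 0.0332), and its call was kept without scramble 24 h replicate 3, si-A1 24 h replicate 4, scramble 48 h replicate 2 or 3, or si-A1 48 h replicate 2 or 4, and lost without any one of the other 10 arrays. Over the omission of each of the 16 arrays in turn, its change lay between -2.27 and -1.75.

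Regulators of the cycle itself were among the called genes. FOXM1, a transcription factor of the G2/M wave, read 8.07, 7.95, 7.84 and 8.07 in scramble and 7.19, 6.98, 6.89 and 6.89 in si-A1 at 24 h. The corresponding 48 h readings were 9.07, 8.79, 8.20 and 8.72 in scramble and 5.93, 6.49, 5.99 and 6.38 in si-A1. Scramble and si-A1 were apart at both times, and the fall was 2.00-fold at 24 h and 5.65-fold at 48 h. The change was -1.5 (SE 0.252, limma adjusted p = 0.0109). CDKN3, a phosphatase of cyclin-dependent kinases, had the largest decrease among called genes measured in all groups, at -2.38 (SE 0.374, adjusted p = 0.00652). Its fall was 1.71-fold and not called at 24 h, and 8.91-fold at 48 h, and its second probe was called at -2.61. BIRC5, which encodes survivin, changed by -1.65 (adjusted p = 0.0193), and the call was lost without si-A1 24 h replicate 1 or replicate 3 (lowest and highest change over single arrays left out, -1.84 and -1.48). CCNA2 (cyclin A2, -1.46), CKS1B (-1.41) and CDC20 (-1.35), an activator of the anaphase-promoting complex, were also called.

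Not every gene of mitosis had a called change. The study named AURKA, BIRC5, FOXM1, CDKN1A and other genes on these samples, so their directions are not independent evidence. Of the others it named, CCNB2 (cyclin B2) had a change of -1.66, a limma adjusted p of 0.0547 and a fall of 3.43-fold at 24 h and 10.8-fold at 48 h. CDC25C had a change of -1.26 (adjusted p = 0.0971), KIF23 of -0.59 (adjusted p = 0.166) and MYBL2, which encodes B-MYB, of -0.43 (adjusted p = 0.262). The second probe of KIF23 gave a change of -1.06, also not called (limma adjusted p = 0.188). Its effects were -1.54 at 24 h and -2.59 at 48 h, against -0.47 and -1.06 at the brightest probe. For CCNB1 (cyclin B1) the probes disagreed. The brightest probe had a change of 0.41 that was not called, and the second had a called change of -1.96 (adjusted p = 0.00487), with an effect of -0.74 at 24 h and -2.70 at 48 h. A dimmer probe of NCAPD2, a condensin subunit, was also called (-1.32, adjusted p = 0.0371) where the brightest was not. MKI67, which encodes the proliferation marker Ki-67, fell 2.11-fold at 24 h and 2.02-fold at 48 h at its brightest probe, with a change of 0.07 (SE 0.244). Its other probes had effects of -3.13 and -2.79 at 24 h and of -3.44 and -3.13 at 48 h, so that the size of its fall depended on the probe and the change did not pass at any of them.

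**Figure D2:**
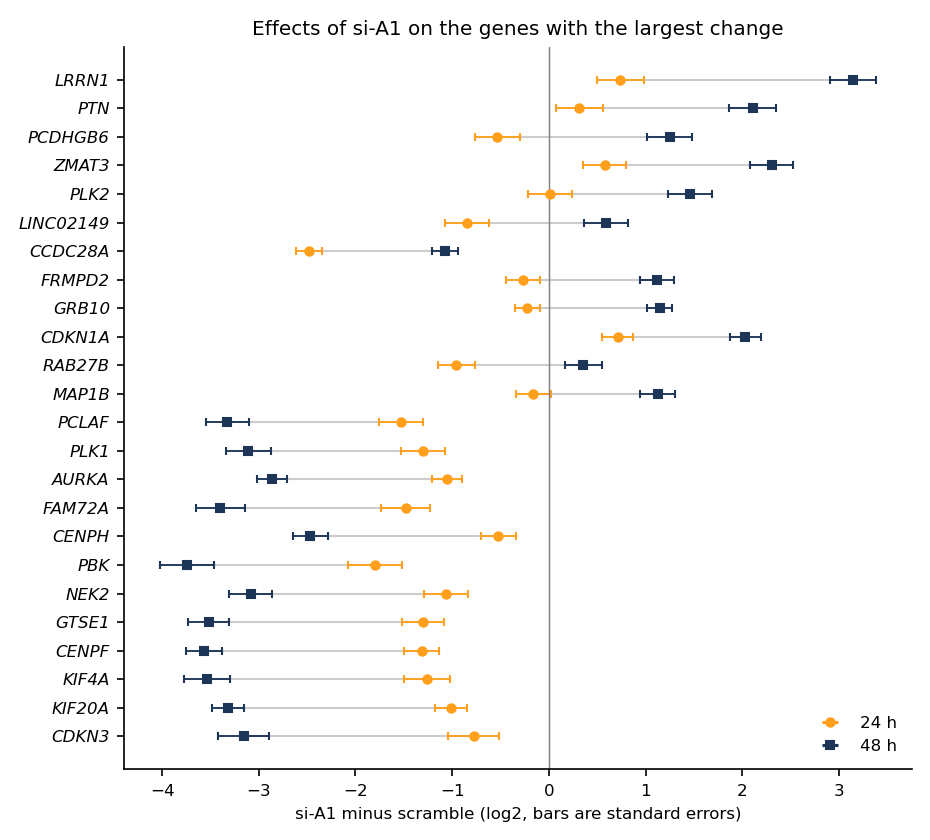
Shown are the 12 largest decreases and 12 largest increases in effect among called genes measured in all 4 groups. The difference between si-A1 and scramble (log2, horizontal axis) is given at 24 h (orange circles) and at 48 h (dark squares), with bars for the standard error. All 12 genes in the lower part lie further to the left at 48 h, whereas the genes in the upper part moved to the right, among them CCDC28A, which stayed below scramble.

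The promoters of the G2/M genes are shown because these genes moved together. A known feature of such promoters is the CHR element with the letters TTTGAA, to which the MuvB core of the DREAM complex binds. Sequences were taken from RefSeq on GRCh38.p14, 250 bases before to 50 bases after the annotated gene start, for the 4 measured G2/M genes with the largest change and for CLSPN, the S phase gene with the largest fall at 24 h among those measured. Each is given 5' to 3' on the strand of its gene, with TTTGAA or its reverse complement TTCAAA and the E2F letters TTCCCGC or their reverse complement GCGGGAA in capitals. The windows lie at chr5:138178862-138179161 (plus strand), chrX:70289854-70290153 (plus strand), chr1:214602945-214603244 (plus strand), chr22:46296620-46296919 (plus strand) and chr1:35769929-35770228 (minus strand), in the order in which they follow.
KIF20A: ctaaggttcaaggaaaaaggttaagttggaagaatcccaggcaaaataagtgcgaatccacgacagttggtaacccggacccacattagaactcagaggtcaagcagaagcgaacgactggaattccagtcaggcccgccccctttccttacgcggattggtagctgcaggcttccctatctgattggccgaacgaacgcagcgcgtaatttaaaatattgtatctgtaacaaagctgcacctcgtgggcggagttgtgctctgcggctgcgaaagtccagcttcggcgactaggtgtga
KIF4A: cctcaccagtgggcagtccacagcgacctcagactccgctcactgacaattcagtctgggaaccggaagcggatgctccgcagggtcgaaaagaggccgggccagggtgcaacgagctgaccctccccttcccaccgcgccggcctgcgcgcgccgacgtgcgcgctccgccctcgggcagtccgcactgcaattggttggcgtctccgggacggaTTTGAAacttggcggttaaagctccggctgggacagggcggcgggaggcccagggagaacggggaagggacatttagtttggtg
CENPF: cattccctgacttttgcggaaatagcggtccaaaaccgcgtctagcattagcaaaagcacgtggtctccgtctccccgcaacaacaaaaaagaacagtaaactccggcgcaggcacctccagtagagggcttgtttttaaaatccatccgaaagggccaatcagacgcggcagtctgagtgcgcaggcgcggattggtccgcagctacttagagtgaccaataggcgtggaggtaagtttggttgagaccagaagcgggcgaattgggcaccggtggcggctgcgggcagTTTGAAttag
GTSE1: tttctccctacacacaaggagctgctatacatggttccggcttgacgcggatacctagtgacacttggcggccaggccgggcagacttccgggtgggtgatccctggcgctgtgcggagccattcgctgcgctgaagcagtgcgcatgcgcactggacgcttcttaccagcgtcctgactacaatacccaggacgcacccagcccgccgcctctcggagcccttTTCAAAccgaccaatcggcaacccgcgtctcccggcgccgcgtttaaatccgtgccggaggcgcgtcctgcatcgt
CLSPN: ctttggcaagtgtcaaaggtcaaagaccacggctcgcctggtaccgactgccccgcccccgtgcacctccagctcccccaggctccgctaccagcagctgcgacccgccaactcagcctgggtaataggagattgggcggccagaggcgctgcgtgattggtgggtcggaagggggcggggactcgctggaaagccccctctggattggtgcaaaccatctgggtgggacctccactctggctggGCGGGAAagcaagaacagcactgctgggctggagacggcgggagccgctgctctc

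The window of KIF20A held neither motif, those of KIF4A, CENPF and GTSE1 held 1 CHR each, and that of CLSPN held 1 E2F motif. CHR letters on either strand were present in 12 of the 19 windows (63.2%) of called G2/M genes and in 29 of the 43 windows (67.4%) of G2/M genes that were not called. They were present in 1 of 41 windows (2.44%) of S phase genes without a called change. Among the 15020 windows of tested genes they were present in 12%, and among all 27305 promoters in the table in 15.4%. The E2F letters were present in 0 of 19 windows of called G2/M genes and in 22 of 41 (53.7%) of S phase genes. Their share was 8.69% among the windows of tested genes and 6.56% among all promoters. CHR letters were about as frequent in called as in not called G2/M genes, and a match describes only these letters in this window. The letters of the CHR and E2F motifs cannot overlap, and no test was made of the shares.

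The genes of DNA replication had fallen by 24 h, and few of them had a called change of effect. Of 53 S phase genes tested, 46 were called lower at 24 h and 50 at 48 h, whereas 1 had a called change of effect. The median effect was -1.57 at 24 h and -1.84 at 48 h, and the median change was -0.27. E2F1, a transcription factor at the start of S phase, read 8.27, 8.17, 8.47 and 7.81 in scramble and 6.06, 5.71, 5.83 and 5.36 in si-A1 at 24 h. At 48 h it read 8.46, 8.15, 8.30 and 8.88 in scramble and 5.39, 5.78, 5.52 and 6.25 in si-A1. The groups were apart at both times, and the fall was 5.42-fold at 24 h and 6.56-fold at 48 h, with a change of -0.28 (SE 0.309, limma adjusted p = 0.766). CLSPN, which encodes the checkpoint protein claspin, had an effect of -3.90 at 24 h and -3.14 at 48 h, a change of 0.76 (SE 0.504, adjusted p = 0.573), and 2 of 4 si-A1 arrays at 24 h were well above background. CHEK1, the checkpoint kinase, had a change of -0.65 (adjusted p = 0.415).

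The single S phase gene with a called change was GMNN, which encodes geminin, the inhibitor of replication licensing that is present from S phase to mitosis. It read 8.10, 8.13, 8.18 and 8.17 in scramble and 7.77, 8.05, 7.93 and 7.85 in si-A1 at 24 h. The 48 h arrays read 9.14, 8.85, 8.63 and 9.04 in scramble and 7.13, 7.38, 7.40 and 7.53 in si-A1. Scramble and si-A1 were apart at both times, although the fall of 1.18-fold at 24 h was not called. At 48 h the fall was 2.94-fold, and the change was -1.31 (SE 0.185, limma adjusted p = 0.0045). PCLAF, a partner of PCNA at replication forks outside the list, also changed (-1.80, adjusted p = 0.0153).

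Histone genes had also fallen by 24 h, without a called change of effect. Of 66 replication-dependent histone genes tested, 56 were called lower and 1 higher at 24 h, and 58 lower and 1 higher at 48 h, with 0 called changes of effect by limma. The median effect was -1.56 at 24 h and -2.11 at 48 h, the median change was -0.44, and 56 of 66 changes were below 0. The median change lay between -0.76 and -0.18 over all alternatives. H1-5, a linker histone, read 11.18, 11.51, 12.66 and 10.88 in scramble and 8.20, 7.87, 7.92 and 7.75 in si-A1 at 24 h. Its 48 h values were 12.30, 12.33, 11.42 and 11.76 in scramble and 8.20, 8.48, 7.29 and 8.33 in si-A1. The groups lay far apart at both times, with falls of 12.3-fold and 14.7-fold and a change of -0.26 (SE 0.486, adjusted p = 0.875). Histone genes of one type are near-identical in sequence, and the signal of one probe may come from several copies. The smallest p of the list belonged to H2BC21 (change -0.82, adjusted p = 0.0831), whose second probe had a change of 0.53.

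**Figure D3:**
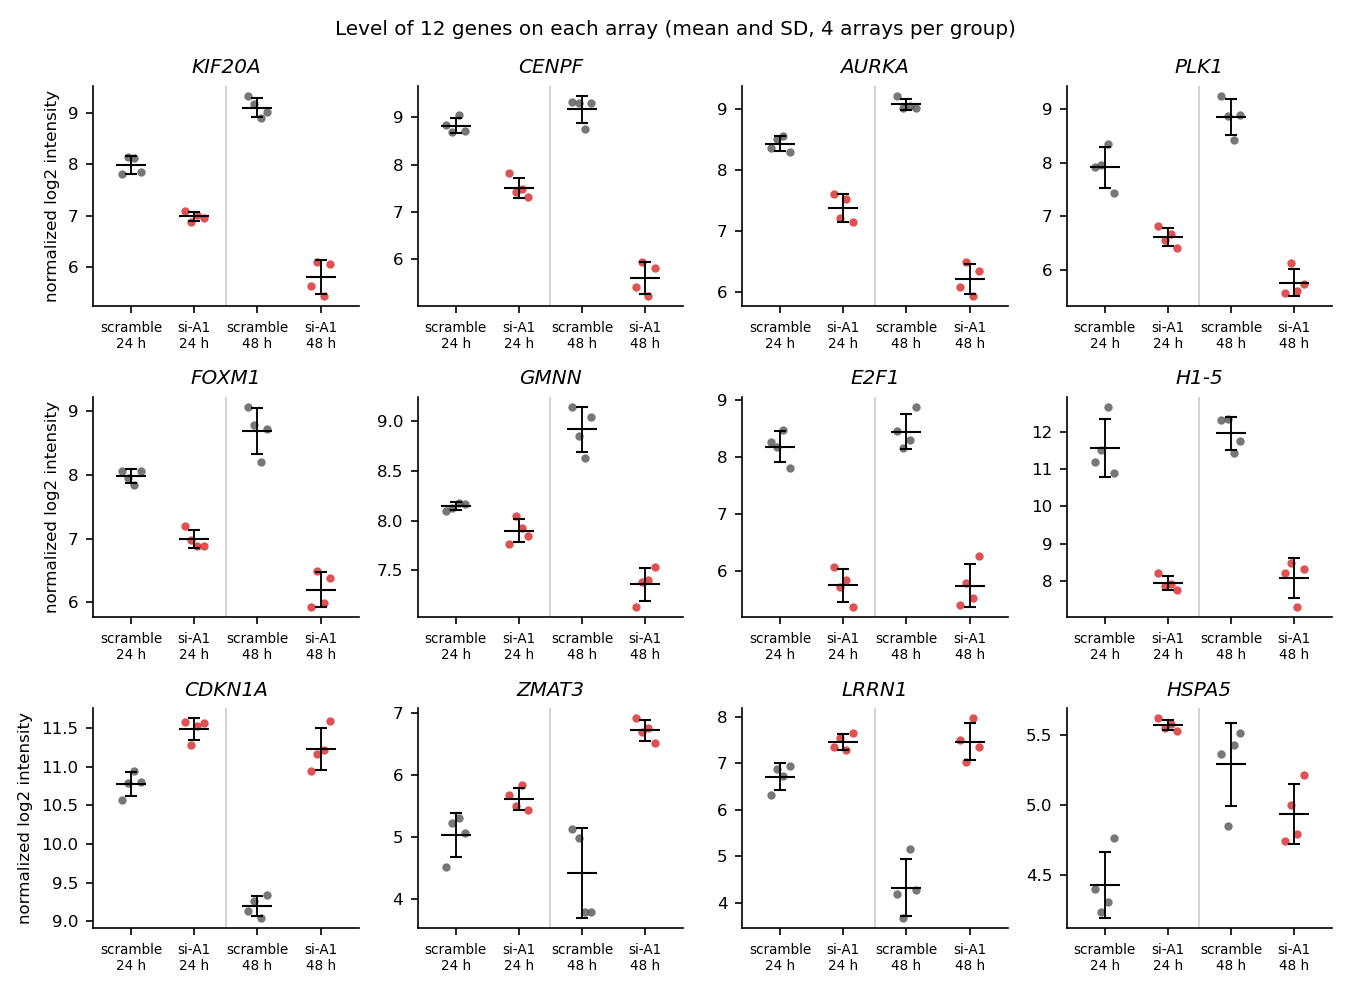
Normalized log2 intensity (vertical axis) of 12 genes on each array of the 4 groups, scramble in grey and si-A1 in red, with the mean and SD of 4 arrays. The vertical line separates the array versions, so that only neighbours on the same side are compared. In KIF20A, CENPF, AURKA, PLK1 and FOXM1 the gap between si-A1 and scramble is wider at 48 h, in E2F1 and H1-5 it is seen at both times with changes of -0.28 and -0.26, in CDKN1A, ZMAT3 and LRRN1 si-A1 lies above scramble by more at 48 h, and in HSPA5 si-A1 lies above scramble at 24 h alone.

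Some targets of p53 had a higher effect at 48 h than at 24 h. Of 39 tested, 5 had a higher effect at 48 h (CDKN1A, ZMAT3, PLK2, TP53I3 and SPATA18) and 0 a lower one, against 0.224% of all genes called higher. Of these 5, 1 (CDKN1A) was called against scramble at both times and 4 at 48 h alone. At 24 h, 3 of the 39 were called higher and 2 lower, and at 48 h 16 were called higher and 1 lower. Among all genes, 1.09% were called higher and 4.71% lower at 24 h, and 3.85% higher and 7.93% lower at 48 h. The median effect was 0.10 at 24 h and 0.49 at 48 h, and the median change was 0.40. The list median per array lay between 8.41 and 8.82 in scramble and between 8.47 and 8.64 in si-A1 at 24 h. At 48 h it lay between 7.84 and 8.14 in scramble and between 8.13 and 8.26 in si-A1. The groups overlapped in their list medians at 24 h, and also at 48 h, where scramble replicate 4 reached 8.14 and si-A1 replicate 3 read 8.13.

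CDKN1A, which encodes the cell cycle inhibitor p21, read 10.57, 10.79, 10.94 and 10.80 in scramble and 11.58, 11.28, 11.52 and 11.57 in si-A1 at 24 h. The corresponding 48 h readings were 9.14, 9.27, 9.04 and 9.34 in scramble and 10.94, 11.16, 11.22 and 11.59 in si-A1. All si-A1 arrays lay above all scramble arrays at both times. The rise was 1.64-fold at 24 h and 4.09-fold at 48 h, a change of 1.32 (SE 0.225, limma adjusted p = 0.0119), and it was 1.11 within the first slides and 1.53 within the second. ZMAT3, an RNA-binding protein induced by p53, rose 4.94-fold at 48 h, with 1.5-fold at 24 h not called, and its change was 1.72 (SE 0.314, adjusted p = 0.0181). Its change was 1.04 within the first slides and 2.41 within the second, and 3 of 4 scramble arrays at 48 h were well above background.

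PLK2, a kinase induced by p53 after stress, had a change of 1.45 (SE 0.323, limma adjusted p = 0.0495) and an effect of 0.01 at 24 h and 1.46 at 48 h. The call was lost without any one of the arrays other than scramble 48 h replicate 2, and over all 16 omissions the change lay between 1.26 and 1.75. SPATA18, a protein of mitochondrial quality control, changed by 1.51 (adjusted p = 0.0392), with 1 of 4 scramble arrays at 48 h well above background, and its call was lost without any one of 13 arrays. The 3 arrays whose omission kept it were scramble 24 h replicates 2 and 3 and scramble 48 h replicate 2, and the change lay between 1.33 and 1.65 over all 16 omissions. TP53I3, an oxidoreductase, changed by 1.07 (adjusted p = 0.0268). Other targets had no called change at their brightest probe. GADD45A, a growth arrest gene, had a change of 0.88 (adjusted p = 0.0537), and BAX, a pro-apoptotic gene, of -0.01 (adjusted p = 0.993). For MDM2, the ubiquitin ligase of p53, the probes disagreed. Its brightest probe had a change of 0.40 (adjusted p = 0.443), and a dimmer probe had a called change of 1.40 (adjusted p = 0.0397), from -0.63 at 24 h to 0.77 at 48 h. These 3 genes were chosen after their values were seen.

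Among genes measured in all groups, the largest called increases outside the p53 targets came from genes of several functions. LRRN1, a membrane protein with leucine-rich repeats, read 6.31, 6.88, 6.72 and 6.95 in scramble and 7.35, 7.54, 7.28 and 7.66 in si-A1 at 24 h. At 48 h it read 4.19, 3.66, 5.15 and 4.28 in scramble and 7.51, 7.04, 7.98 and 7.35 in si-A1. The groups were apart at both times, with 1.67-fold at 24 h, which was not called, and a rise of 8.85-fold at 48 h. That rise started from a dim level, with 3 of 4 scramble arrays at 48 h well above background. The change of 2.40 (SE 0.341, limma adjusted p = 0.0045) was 2.49 within the first slides and 2.31 within the second. GRB10, an adaptor of growth factor receptors, changed by 1.37 (SE 0.184, adjusted p = 0.00358), from an effect of -0.22 to 1.15, and both of its probes were called. MAP1B, a microtubule-binding protein of neurons, changed by 1.28 (adjusted p = 0.0317), and its second probe was called at 0.93. The call of the brightest probe was kept without scramble 24 h replicate 1, 3 or 4, scramble 48 h replicate 2 or 3, or si-A1 48 h replicate 3 or 4, and lost without any one of the other 9 arrays, with a change between 1.09 and 1.43 over all 16 omissions.

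PTN, the secreted growth factor pleiotrophin, read 5.04, 4.52, 4.79 and 4.38 in scramble and 4.98, 4.73, 5.31 and 4.97 in si-A1 at 24 h. The 48 h arrays read 3.61, 4.45, 4.07 and 4.07 in scramble and 6.38, 5.72, 6.22 and 6.31 in si-A1. The groups overlapped at 24 h and were apart at 48 h. The change was 1.79 (SE 0.344, limma adjusted p = 0.0253), and the call was lost without scramble 24 h replicate 1, si-A1 24 h replicate 1 or 2, scramble 48 h replicate 1 or 4, or si-A1 48 h replicate 1. Its change lay between 1.65 and 2.00 over all 16 omissions. PCDHGB6, a clustered protocadherin, changed by 1.78 (adjusted p = 0.0192) and FRMPD2, a scaffold protein, by 1.39 (adjusted p = 0.0156). For PTN and for PCDHGB6, 3 of 4 scramble arrays at 48 h were well above background. Genes of the protocadherin cluster share their last exons, so that signal of PCDHGB6 may include other members.

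At their brightest probes, a few genes called lower at 24 h lay closer to scramble at 48 h. CCDC28A read 7.84, 7.67, 8.08 and 7.78 in scramble and 5.39, 5.20, 5.61 and 5.26 in si-A1 at 24 h. Its 48 h values were 6.84, 6.97, 7.01 and 7.05 in scramble and 5.73, 5.51, 6.27 and 6.07 in si-A1. Scramble and si-A1 were apart at both times, but the fall went from 5.57-fold to 2.10-fold, a change of 1.41 (SE 0.189, limma adjusted p = 0.00358). RAB27B, a GTPase of secretory vesicles, fell 1.94-fold at 24 h and was 1.28-fold higher at 48 h, which was not called. The second probe of RAB27B stayed low, with effects of -0.74 at 24 h and -0.70 at 48 h and a change of 0.04. At the brightest probe the change was 1.32 (adjusted p = 0.0367). Its call was kept without scramble 24 h replicate 1 or 3, si-A1 24 h replicate 2, or scramble 48 h replicate 1 or 2, and lost without any one of the other 11 arrays, with a change between 1.16 and 1.51 over all 16 omissions. LINC02149, a long non-coding RNA, changed by 1.44 (adjusted p = 0.049), and its call was lost without any one of the arrays other than si-A1 24 h replicate 1 and scramble 48 h replicate 2, with a change between 1.26 and 1.70 over all 16 omissions. The groups of LINC02149 overlapped at 24 h, where 3 of 4 scramble and 2 of 4 si-A1 arrays were well above background. Its effect was -0.85 at 24 h and 0.59 at 48 h, the latter not called. At 48 h all of its si-A1 arrays lay above all scramble arrays.

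The reverse course was seen in HSPA5, which encodes BiP, the main chaperone of the endoplasmic reticulum. It read 4.40, 4.23, 4.30 and 4.76 in scramble and 5.62, 5.55, 5.58 and 5.53 in si-A1 at 24 h. The corresponding 48 h readings were 5.36, 4.85, 5.43 and 5.51 in scramble and 4.74, 5, 4.79 and 5.21 in si-A1. The groups were apart at 24 h and overlapped at 48 h. It rose 2.21-fold at 24 h, had an effect of -0.35 at 48 h that was not called, and changed by -1.5 (SE 0.313, limma adjusted p = 0.0389). Its only tested probe was dim in all 4 groups. The means were 4.42 in scramble and 5.57 in si-A1 at 24 h, and 5.29 and 4.93 at 48 h. In scramble at 24 h, 3 of 4 arrays were well above background. Over all alternatives the change lay between -1.64 and -0.53. The call was lost without any one of 13 arrays, the exceptions being replicate 4 of both groups at 24 h and scramble 48 h replicate 2, and the change lay between -1.64 and -1.41 over all 16 omissions. At the brightest probes, HSPA5 was the only called gene of 37 in the list of the integrated stress and unfolded protein response, whose median change was -0.07. A dimmer probe of SARS1, a tRNA synthetase gene of that list, was called at -0.92 (adjusted p = 0.0344).

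**Figure D4:**
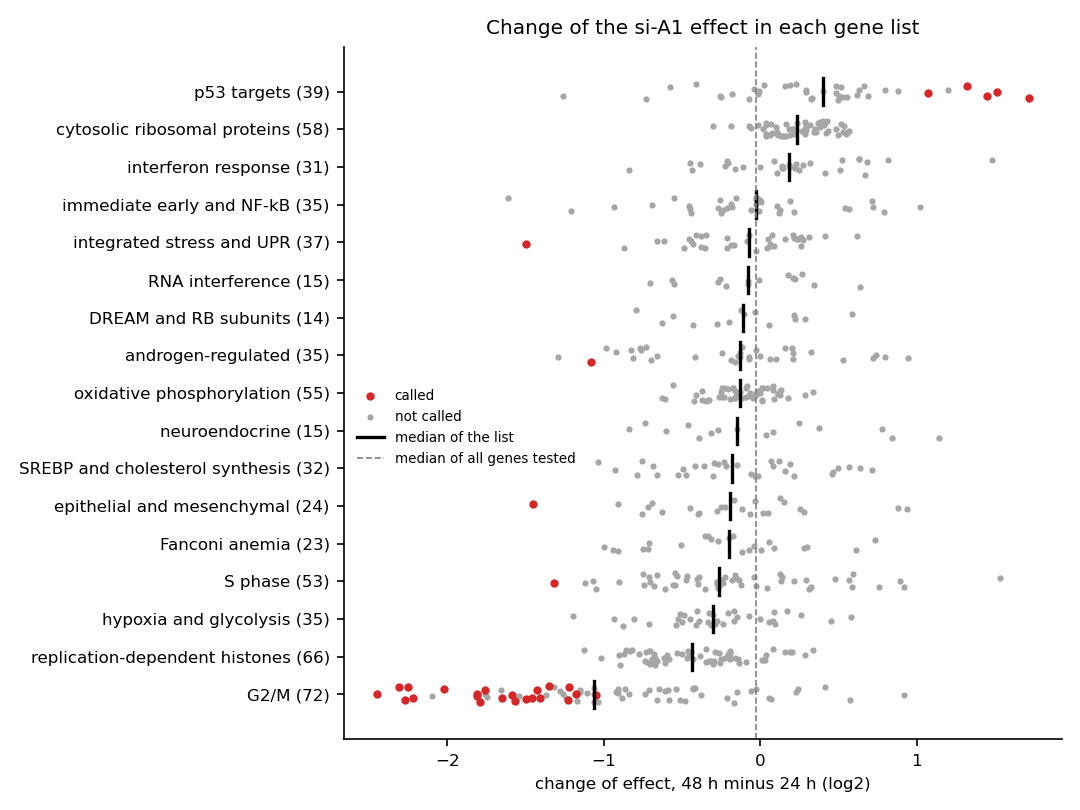
Change of effect (48 h minus 24 h, log2, horizontal axis) of each tested member of 17 gene lists, with called members in red, others in grey, the list median as a black bar and the median of all genes as a dashed line. The number of members tested is in parentheses. The G2/M list lies furthest to the left with 22 called members, the p53 targets furthest to the right with 5.

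In the remaining lists few or no changes were called. Of 35 androgen-regulated genes 1 had a lower effect, NCAPD3 (-1.08, limma adjusted p = 0.0134), a condensin subunit that compacts mitotic chromosomes. Of the 35, 9 were called lower and 0 higher at 24 h, and 15 lower and 1 higher at 48 h. Over all genes, 4.71% were called lower at 24 h and 7.93% at 48 h. The median effect of the list was -0.32 at 24 h and -0.26 at 48 h. KLK2 and KLK3, which encodes prostate-specific antigen, had effects of 0.03 and 0.15 at 24 h, not called. They fell by 0.95 and 0.77 on the log2 scale at 48 h, with changes of -0.98 (adjusted p = 0.0821) and -0.92 (adjusted p = 0.221). KLK2 and KLK3 were not selected by the rule for named genes. Of 24 epithelial and mesenchymal genes 1 was called, OVOL1, a zinc-finger factor of epithelial identity (-1.45, adjusted p = 0.0313), and its call was kept without scramble 24 h replicate 2, 3 or 4, si-A1 24 h replicate 4, scramble 48 h replicate 2, or si-A1 48 h replicate 1 or 4, and lost without any one of the other 9 arrays. Over all 16 omissions its change lay between -1.55 and -1.24. The Fanconi anemia list, whose genes repair DNA crosslinks, had 13 of 23 members called lower at 24 h, 14 at 48 h and 0 called changes at their brightest probes by limma. A dimmer probe of FANCA had a called change of 1.62 (adjusted p = 0.0311), from an effect of -1.52 at 24 h to 0.10 at 48 h, whereas its brightest probe had a change of 0.30 (adjusted p = 0.548), with effects of -1.70 and -1.40. Its lowest p belonged to FANCI (-0.91, adjusted p = 0.0842), which read 5.62, 6, 5.55 and 5.58 in si-A1 against 9.06, 8.83, 8.48 and 8.79 in scramble at 48 h.

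Among the other lists, limma called 0 changes in DREAM and RB subunits (14 tested), sterol synthesis (32), interferon response (31), immediate early genes (35), hypoxia and glycolysis (35), ribosomal proteins (58), oxidative phosphorylation (55), neuroendocrine genes (15) and RNA interference (15). Their members with the smallest p were E2F5 (-0.56, adjusted p = 0.214), EBP (-0.69, adjusted p = 0.0536), EIF2AK2 (0.63, adjusted p = 0.0972), DUSP6 (1.02, adjusted p = 0.165), PGK1 (-0.81, adjusted p = 0.118), RPS19 (0.53, adjusted p = 0.207), CYC1 (-0.55, adjusted p = 0.149), TUBB3 (1.14, adjusted p = 0.104) and TARBP2 (-0.71, adjusted p = 0.0562). The ribosomal proteins had a median change of 0.23, with 5 of 58 below 0. That median was 0.10 without scramble 24 h replicate 3, 0.04 within the first slides, 0.42 within the second and 0.04 with array quality weights. The hypoxia and glycolysis genes had a median of -0.30, with 27 of 35 below 0. A gene that misses the threshold is not shown to be equal at both times, since the median standard error of a gene's change was 0.26.

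All 12 LNCaP markers were measured in all 4 groups. Of them, 2 were called lower at 24 h and 5 at 48 h, against 4.71% and 7.93% of all genes. Of the same 12, 0 had a called change of effect by limma. Their list median per array lay between 10.55 and 11.30 in scramble and between 10.66 and 11.23 in si-A1 at 24 h, and between 10.44 and 11.72 and between 10.20 and 11.09 at 48 h, and the groups overlapped at both times. Of 14 tested markers of other cell types, 9 passed the same rule, and 1 (ACTG2) was called higher at 24 h. None of the 14 had a called change by limma, the smallest p being that of ACTG2 (-0.74, adjusted p = 0.0667). COL1A1, COL1A2 and COL3A1 of fibroblasts and TP63 of basal cells had at least 1 group in which no array was well above background. The list median per array lay between 5.36 and 6.05 in scramble and between 5.52 and 5.93 in si-A1 at 24 h, and between 5.28 and 6.47 and between 5.46 and 6.46 at 48 h, so that the groups overlapped at both times. In these bulk samples, fewer cells in a phase of the cycle and less RNA per cell cannot be told apart.

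The levels of background differed between the array versions. In linear processed intensity, the threshold above the negative control spots lay between 3.19 and 4.50 on the 24 h arrays of the fit. On its 48 h arrays it lay between 2.28 and 2.92. The median spread within groups was 0.336 at 24 h and 0.285 at 48 h, in log2 units. The part of background and spread in the changes was not tested. With normexp background correction and an added offset of 50 in place of the scanner's processed signal, the median change of the G2/M list was -0.54. The number of its members called lower was 32. The parts of the correction and of the offset cannot be told apart. Over 15379 genes measured in all groups, the effects at 24 h and 48 h had a Pearson r of 0.634 and a Spearman rho of 0.457 across genes, which are not independent replicates, and the effects spread over genes with an SD of 0.414 at 24 h and 0.497 at 48 h.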

How the data were processed

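RNA was hybridised to one-colour Agilent arrays, and the scanner files deposited by the authors hold processed intensity values per spot, together with deposited normalized log2 values per probe. According to the submitters' processing notes the authors used R 3.4.3 and limma 3.34.8, and the study's methods state that 1 array of low intensity was removed. Here the processed intensity was taken to log2, spots flagged as non-uniform or as population outliers were left out, spots of a probe were averaged, and 23 arrays were quantile normalized over the shared probes. Which array the authors removed is not given in the sources used here, and the si-A2 48 h array with the lowest median processed intensity (13.95) was left out. A probe was kept if it exceeded the mean plus 3 SD of the negative controls on at least 3 arrays at each time point, and 6 probes with a group without values were dropped.

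Effects and the change of effect were estimated with limma 3.58.1 in R 4.3.3 (with statmod 1.5.0), with the slide as a term within each time point, and p-values were adjusted by Benjamini-Hochberg over all 39865 probes. All p-values are two-sided. The procedure was tested on simulated data. That simulation had independent noise on each array and no slide effect, so it cannot speak to effects of the slides. Gene names came from RefSeq, which gave 1 gene for 28661 shared probes, conflicting genes for 47 and none for 16990. Well above background is the scanner's own mark, and "measured" means on at least 2 of 4 arrays in each group. Named genes were the 12 largest increases and 12 largest decreases among called and measured genes, up to 3 called members of each list, genes named by the study, and the member with the smallest p of a list without a call. Members and lists were chosen with earlier results of these data known. The number of arrays, 4 per group, limits the precision, and no spot was saturated. Alternatives covered the normalization, background correction, filter, probe rule, slide, replicate block, arrays in the fit, thresholds and leaving out each array. Not every gene selected is reported here.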

Additional observations from a re-analysis of the deposited data

Results flagged for a closer look

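The effect of si-A1 differed between 48 h and 24 h, by a limma test of the difference itself, for 241 probes. Among the named genes the effect was lower at 48 h for the spindle and kinetochore genes DLGAP5 (change -2.45), KIF20A (-2.31), KIF4A (-2.27), CENPF (-2.25), GTSE1 (-2.22) and CENPH (-1.94), and for the kinases and regulators CDKN3 (-2.38), NEK2 (-2.02), PBK (-1.95), AURKA (-1.81), PLK1 (-1.81), BIRC5 (-1.65) and FOXM1 (-1.5). It was also lower for FAM72A (-1.92), PCLAF (-1.80), HSPA5 (-1.5), OVOL1 (-1.45), GMNN (-1.31) and NCAPD3 (-1.08). FAM72A has near-identical copies in the genome whose signal its probe may share, and its call was lost without si-A1 24 h replicate 1 or 3 or scramble 48 h replicate 4, with a change between -2.10 and -1.64 over all 16 omissions.

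The effect was higher at 48 h for the p53 targets ZMAT3 (1.72), SPATA18 (1.51), PLK2 (1.45) and CDKN1A (1.32). It was also higher for LRRN1 (2.40), PTN (1.79), PCDHGB6 (1.78), LINC02149 (1.44), CCDC28A (1.41), FRMPD2 (1.39), GRB10 (1.37), RAB27B (1.32) and MAP1B (1.28).

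Single arrays stood apart from the other 3 of their group by Dixon's criterion in 10 of 224 groups of named genes, where chance marks about 1 in 20. In scramble at 48 h these were CENPF in replicate 3 (8.75), AURKA in replicate 1 (9.21), SPATA18 in replicate 1 (3.74), and BIRC5 (10.16) and CDC25C (5.86) in replicate 4. In si-A1 at 48 h they were FANCI in replicate 2 (6) and CCNB2 in replicate 3 (3.64). At 24 h they were NCAPD3 in si-A1 replicate 4 (7.73), CDC25C in si-A1 replicate 2 (5.16) and EIF2AK2 in scramble replicate 3 (9.55).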

How the results depend on the processing

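The number of called changes (241 probes, 101 higher and 140 lower) was within 1.5 times of this in 14 of 37 alternatives. It was 480 (223 higher, 257 lower) with normexp background correction and an offset of 50, 420 (164 and 256) with the scanner's background mark as the filter, and 105 (38 and 67) with probes whose interquartile range reached 0.5. It was 123 (41 and 82) without a slide term, 142 (53 and 89) with the replicate block in place of the slide, and 106 (42 and 64) from the 16 si-A1 and scramble arrays. Limma called 0 (0 and 0) within the first slides, 0 (0 and 0) within the second and 0 (0 and 0) with all 24 arrays, with 3083, 2753 and 903 probes at an unadjusted p below 0.05. Array quality weights gave 1069 (413 and 656), and all 24 arrays with weights, chosen after seeing the data, 843 (315 and 528). At an adjusted p below 0.01 the count was 49 (17 and 32), and 65 probes were higher with a change of at least 1. Leaving out 1 array gave 96 (without si-A1 24 h replicate 3) to 357 (without scramble 24 h replicate 3), with 39 (without scramble 48 h replicate 4) to 139 (without scramble 48 h replicate 2) higher and 55 (without si-A1 24 h replicate 1) to 234 (without scramble 24 h replicate 3) lower. The G2/M median of -1.06 became -0.54 with normexp and -1.24 and -0.78 within the first and second slides, and lay between -1.16 and -0.97 without single arrays. Its 22 called members became 0 and 0 within the slides, 0 with all 24 arrays, 39 with weights, 39 with all 24 arrays and weights, and 13 at the stricter p, and 17 (without si-A1 24 h replicate 3) to 32 (without scramble 24 h replicate 3) without single arrays. The S phase median stayed between -0.44 and -0.12, and the Fanconi anemia median of -0.20 was 0.0421 within the second slides. The replicate numbers did not pair the samples at both times. The correlation of same-numbered deviations from the group means was -0.06 to 0.14 at 24 h and 0.18 to 0.23 at 48 h, where it was 0.03 once slide means were removed. A sample correlated best with its own number for 1 of 4 numbers at 24 h and 3 of 4 at 48 h. Once slide means were removed it was 4 of 4 at 48 h. In that case both numbers of a slide have the same correlation by construction, so that these are not 4 separate matches. The causes of these shifts were not tested.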

Other observations

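Genes outside the lists also had called changes, and those given here were chosen after their values were seen. Of the 100 genes with a lower effect at 48 h, 74 were in none of the lists. STMN1, which encodes the microtubule-destabilizing protein stathmin, had an effect of -0.30 at 24 h and -2.05 at 48 h, a change of -1.75 (limma adjusted p = 0.00141). SPAG5, a spindle protein, changed by -1.75 (adjusted p = 0.0045), ZWINT, a kinetochore protein, by -1.68 (adjusted p = 0.0216), and CDC25B, a phosphatase that activates cyclin-dependent kinase at mitotic entry, by -1.29 (adjusted p = 0.00958). POLQ, a polymerase of DNA break repair, fell at both times, with effects of -1.79 and -2.74 and a change of -0.95 (adjusted p = 0.00912).

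HSPA5 was one of 6 genes with a called lower effect at 48 h that had risen at 24 h alone. The others were the small heat shock protein gene HSPB1 (0.97 at 24 h and -0.38 at 48 h, adjusted p of the change 0.0486), MANF, a secreted factor of the endoplasmic reticulum (0.71 and -0.04, adjusted p = 0.0473), NOL12 (1.28 and -0.07, adjusted p = 0.0478), RNF11 (1.21 and -0.08, adjusted p = 0.0458) and TRIM47, which was not well above background in all groups. These p-values, from limma, lie close to the threshold.

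Of the 44 genes with a higher effect at 48 h, 39 were in none of the lists. The pseudogenes ANKRD20A8P (1.19) and ANKRD20A12P (1.25), whose family members are near-identical, had the same adjusted p of 0.0045. PCDHGA3, a member of the same protocadherin cluster as PCDHGB6, changed by 1.20 (adjusted p = 0.0254). MAN2B1, a lysosomal mannosidase, changed by 0.98 (adjusted p = 0.00487).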
